A study of Mus musculus with 5 samples.

Results

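The genes described here are 34 genes of fatty acid oxidation, of ketone body metabolism and of their control by the nuclear receptor PPARA, taken from a named list. Each gene was represented by its brightest probe set among those carrying 1 gene symbol, which gave values for 33 of the 34, out of 18820 genes measured that way. The exception was Acadvl, the very long chain acyl-CoA dehydrogenase, whose probe set carries a second symbol. The tissue was liver of adult C57Bl/6 mice. The control group (3 arrays) had received rat IgG, and the treated group (2 arrays) M279, an antibody against CSF1R, the receptor that many macrophages need for survival. Both were injected into the peritoneal cavity at 300 µg, 3 times a week for 6 weeks. The sources used here do not give sex, feeding state or time of dissection. The labels do not state that the samples of a group were separate animals, so the spread behind each p-value may be technical. Differences are log2 intensities, treated minus control, with limma's standard error (SE), and groups are called apart where both treated arrays lay beyond all controls.

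Fatty acids enter mitochondria as carnitine esters and are shortened there in a repeating cycle of dehydrogenation, hydration, a further dehydrogenation and thiolysis. Peroxisomes run a similar cycle with an oxidase as its first enzyme, mainly on very long and branched chains, and pass the shortened products on. In the fasted liver much of the resulting acetyl-CoA becomes ketone bodies, and PPARA raises the transcription of many of these genes.

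No member passed an adjusted p of 0.05 in limma (0 of 33, with 0% of the 35556 probe sets passing), and the measured differences were small. The largest was that of Eci2, an enoyl-CoA isomerase that handles unsaturated fatty acids, which was 1.51-fold higher in treated liver. Both treated arrays lay above all controls for 6 members: Eci2, Eci1, Slc25a20, Pex11a, Creb3l3 and Decr2. This is 18.2% of members, against 25.1% of all genes and 10.8% of the 5268 genes at least as bright as the dimmest member. They lay below all controls for 0 members, against 19.5% and 28.4%. The other 27 overlapped between the groups. At an unadjusted p under 0.05 in limma, 1 member was higher (all genes 9.91%, genes of that brightness 1.9%) and 0 were lower (8.4% and 9.42%).

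Promoter sequence is shown for the member with the highest difference, for the one with the lowest, and for a pair of subunits that share a promoter region. The sequences come from RefSeq's annotation of GRCm38.p6. The Eci2 and Ehhadh sequences are the 250 bases before each gene's start, read along the gene's strand. The third is the whole stretch of 272 bases between the starts of Hadha, which lies on the minus strand, and Hadhb, on the plus strand, read along the plus strand. Capitals mark GC boxes (GGGCGG) and CCAAT boxes on either strand.
Eci2, chr13:34994145-34994394, minus strand: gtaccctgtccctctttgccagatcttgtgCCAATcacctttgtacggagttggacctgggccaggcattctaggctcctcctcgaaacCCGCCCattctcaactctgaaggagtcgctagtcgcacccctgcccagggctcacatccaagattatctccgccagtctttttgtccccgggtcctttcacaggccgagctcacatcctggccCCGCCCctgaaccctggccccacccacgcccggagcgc
Ehhadh, chr16:21787835-21788084, minus strand: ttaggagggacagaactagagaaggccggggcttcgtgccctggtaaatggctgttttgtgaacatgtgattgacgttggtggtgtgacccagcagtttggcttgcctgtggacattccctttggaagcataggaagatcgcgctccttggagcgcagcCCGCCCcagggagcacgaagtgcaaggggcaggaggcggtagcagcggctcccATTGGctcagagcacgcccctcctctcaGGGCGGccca
Hadha and Hadhb, chr5:30154981-30155252, plus strand: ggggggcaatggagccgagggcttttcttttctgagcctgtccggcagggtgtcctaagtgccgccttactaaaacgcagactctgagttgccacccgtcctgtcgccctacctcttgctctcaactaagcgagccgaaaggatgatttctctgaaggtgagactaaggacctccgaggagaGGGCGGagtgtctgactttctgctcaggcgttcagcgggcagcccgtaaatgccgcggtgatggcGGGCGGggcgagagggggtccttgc

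The Eci2 and Ehhadh stretches each held 2 GC boxes and 1 CCAAT box, and the stretch between Hadha and Hadhb held 2 GC boxes and 0 CCAAT boxes. Of the 34 genes, 28 had an entry in the promoter table, with 32 promoters among them. A GC box stood within 250 bases before the start in 19 of these 32 promoters (59.4%), against 32.7% of all 32851 promoters in the table. The 19 are not all separate stretches, since the windows of Hadha and Hadhb overlap and both were counted. A CCAAT box stood in 14 of 32 (43.8%), against 33.8%. The TATA box TATAAA stood in 0 of 32, against 12.4%. The element that PPARA binds is a repeat of AGGTCA with 1 base between its copies. The exact repeat on either strand was in 0 of 32 and in 0.0335% of all promoters. At that rarity nearly any set of 32 promoters would hold 0, so the count says nothing about these genes. Inexact copies and sequence beyond the 250 bases were not searched. A single copy of AGGTCA was in 7 of 32 (21.9%), namely those of Acadm, Acadvl, Cpt1a, Creb3l3, Echs1, Plin2 and Plin5, against 14% of all.

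Median intensity lay between 32.5 and 33.9 on the 5 arrays, and the arrays correlated pairwise at 0.983 to 0.992 across probe sets. The target of the antibody, Csf1r, stood at 8.49, 8.68 and 8.61 on the log2 scale in controls and at 7.93 and 8.12 in treated liver. The 8 hepatocyte markers checked, among them albumin, lay between 12.2 and 13.2 on every array. Of these 5 were higher and 3 lower, with differences from -0.29 (Tat) to 0.11 (Cyp2e1). Groups were apart on the high side for 4 (50%, against 25.1% of all genes) and on the low side for 1, Tat (12.5%, against 19.5%). On treated replicate 2, 6 of the 8 lay above the control mean, while Cps1 (-0.37) and Tat (-0.47) lay below it. The summed intensity, taken over genes of both directions, was 58313 to 60168 in controls and 59155 to 59302 in treated liver. Of 12 Kupffer cell and macrophage markers 10 were lower, and the summed intensity was 5319 to 6077 in controls, 4262 on treated replicate 1 and 5687 on treated replicate 2. Treated replicate 1, the array with the lowest sum, was also the one on which 18 of 33 members lay above all controls, and a part of these cells in the results was not tested. In whole tissue, fewer cells of a type and less RNA per cell cannot be told apart. The 7 adipocyte markers were all higher (summed intensity 76.6 to 86.4 against 95.5 to 97.0), but at log2 values of only 2.64 to 4.34, under the array medians. The 4 markers of pancreatic acinar cells were all higher too (47.2 to 52.9 against 56.5 to 61.9), also at low log2 values of 3.07 to 4.58. So were 4 of 6 skeletal muscle markers (98.1 to 113 against 116 to 118), at 3.24 to 5.22, and 2 of 2 erythroid ones (928 to 1027 against 1006 to 1173). Of all genes 56.3% were higher, against 39.6% of those at least as bright as the dimmest member. Of 11 circadian clock genes 7 were lower and 4 higher. Both treated arrays lay below all controls for 5 of the 11 (45.5%, against 19.5% of all genes). These were Npas2 (-1.43 ± 0.20), Cry1 (-0.68 ± 0.22), Arntl (-0.55 ± 0.15), Ciart (-0.49 ± 0.13) and Per2 (-0.47 ± 0.11). The treated arrays lay above all controls for 2, Nr1d2 (0.40 ± 0.18) and Tef (0.41 ± 0.14), which is 18.2%, against 25.1%. The summed intensity, taken over genes of both directions, was 2266 to 2455 in controls and 1937 to 2177 in treated liver. The part of these lists in the results was not tested.

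The carnitine shuttle carries long-chain acyl groups into the mitochondrion. Cpt1a, which makes the acylcarnitine and is the regulated entry step, stood at log2 intensities of 11.15, 11.12 and 11.27 in controls and 11.36 and 11.01 in treated liver. One treated array thus lay above all controls and the other below them. The difference was 0.0045 ± 0.14 (SE, 3 control and 2 treated arrays), with a 95% interval from -0.34 to 0.34, and its sign turned when treated replicate 1 (-0.17) or control replicate 1 or 2 was left out, or with quantile normalization or cyclic loess. Slc25a20, the translocase of the inner membrane, was at 9.50, 9.66 and 9.67 in controls and at 9.83 and 9.70 in treated liver. The groups were apart by a narrow margin, and the difference was 0.15 ± 0.11 (limma adjusted p = 0.462). Cpt2, which releases the acyl group inside, differed by 0.086 ± 0.12, with overlapping groups.

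Acyl-CoA dehydrogenases open each turn of the mitochondrial cycle, and Etfdh passes their electrons to the respiratory chain. Acadm, the medium chain enzyme, was at 11.16, 11.31 and 11.28 in controls and at 11.29 and 10.91 in treated liver. Treated replicate 1 lay within the controls and treated replicate 2 below them all. The difference was -0.15 ± 0.15, or 0.045 without treated replicate 2. Acadl, the long chain enzyme, differed by 0.051 and Acads, the short chain enzyme, by 0.072, while Etfdh was at -0.09 and, without treated replicate 2, at 0.058. All 4 had overlapping groups.

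The later steps of the cycle showed the same overlap. Hadha and Hadhb encode the alpha and beta subunits of the trifunctional protein and start on either side of the stretch printed above. Hadha was at 10.90, 10.95 and 10.98 in controls and at 10.97 and 10.55 in treated liver, a difference of -0.18 ± 0.15 that was 0.03 without treated replicate 2. Hadhb was at 9.57, 9.59 and 9.75 in controls and at 9.74 and 9.65 in treated liver, a difference of 0.058 ± 0.11. A second probe set of Hadhb gave 0.064. Treated replicate 2 was therefore below all controls for Hadha alone of the pair, and the difference between the subunits was not tested. Hadh, the 3-hydroxyacyl-CoA dehydrogenase, differed by -0.075, the hydratase Echs1 by 0.022 and the thiolase Acaa2 by -0.016. The signs of Echs1 and Acaa2 turned with 1 array left out and with some scalings.

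Double bonds of unsaturated fatty acids need extra enzymes, and all 4 such members had higher values in treated liver. This set was drawn up after the values were known. Eci2, found in both mitochondria and peroxisomes, was at 9.09, 9.42 and 9.37 in controls and at 9.80 and 9.98 in treated liver. Both treated values lay above all controls, and control replicate 1 was the lowest of the 5. The difference was 0.60 ± 0.14, with a 95% interval from 0.25 to 0.95, an unadjusted p of 0.00567 and an adjusted p of 0.192 in limma. It stayed between 0.50 and 0.69 when any 1 array was left out. Eci1, its mitochondrial counterpart, was at 9.67, 9.90 and 9.87 in controls and at 9.97 and 10.13 in treated liver, and differed by 0.24 ± 0.13 (adjusted p = 0.345), or 0.15 without treated replicate 2. The dienoyl-CoA reductases were closer to the controls. The peroxisomal one, Decr2, was at 10.96, 11.07 and 11.11 in controls and at 11.14 and 11.13 in treated liver, a difference of 0.092 ± 0.11 with the groups just apart. The mitochondrial one, Decr1, differed by 0.15 ± 0.11, and treated replicate 2 (9.495) fell within the controls, whose highest was 9.502. Eci1 and Eci2 had groups apart under quantile normalization, median centring and cyclic loess too, as did Decr1, while Decr2 had so with median centring only. Ech1, a dienoyl-CoA isomerase outside the list, was at 0.17 ± 0.11 with groups apart, and the enoyl-CoA reductase Pecr was at 0.068.

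**Figure D1:**
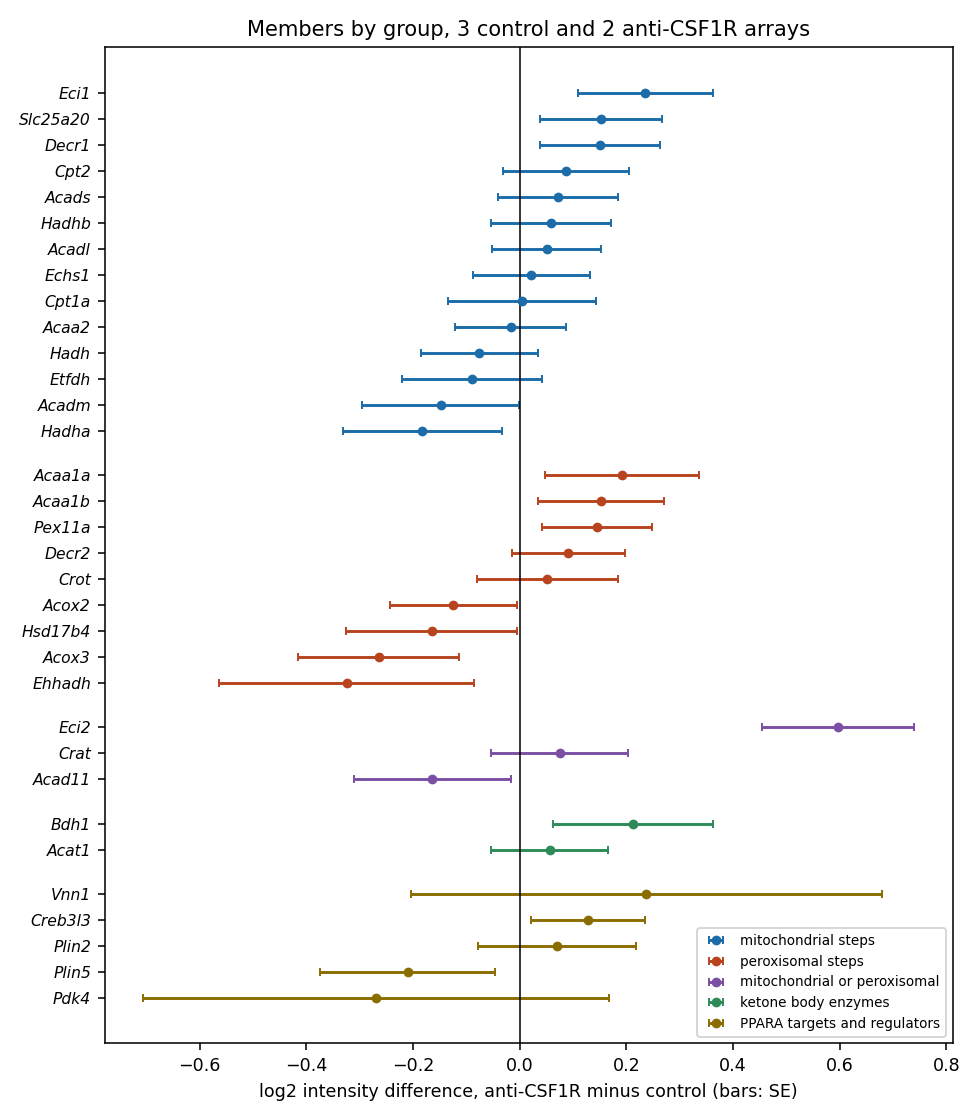
Log2 intensity difference of each of 33 members, treated minus control, with the standard error from limma as bars and colours for the group of the gene. Eci2 stands furthest from 0 at 0.60, and the peroxisomal genes fall into 5 above and 4 below 0.

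Among peroxisomal steps, the 4 oxidases and bifunctional enzymes had lower mean values and the 2 thiolases higher ones, a grouping also drawn up with the values known. Ehhadh, the L-bifunctional enzyme of straight-chain oxidation, was at 10.55, 10.71 and 10.89 in controls and at 10.77 and 10.02 in treated liver. Only treated replicate 2 was below the controls. The difference of -0.32 ± 0.24, the lowest of all members, became 0.053 without that array. Hsd17b4, the D-bifunctional enzyme, likewise had only treated replicate 2 below the controls, and was at -0.16 ± 0.16, or 0.053 without that array. The branched-chain oxidases Acox2 (-0.12 ± 0.12) and Acox3 (-0.26 ± 0.15) kept their sign whichever array was left out, with ranges of -0.21 to -0.042 and -0.42 to -0.11. Acox3 was at 8.34, 8.03 and 8.18 in controls and at 8.07 and 7.76 in treated liver. A second, dim probe set of Acox3 gave -0.10. The thiolase Acaa1b was at 9.98, 10.08 and 10.16 in controls and at 10.31 and 10.14 in treated liver, a difference of 0.15 ± 0.12, and its close paralog Acaa1a differed by 0.19 ± 0.14. Their transcripts are alike, so a probe set of one can read the other. For both genes the groups overlapped.

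Crot, the carnitine octanoyltransferase that exports shortened chains, differed by 0.052 ± 0.13, with a sign that turned without treated replicate 1 (-0.097) and with quantile normalization or cyclic loess. Pex11a, a PPARA-responsive factor in peroxisome division, was at 9.98, 10.09 and 10.02 in controls and at 10.20 and 10.14 in treated liver. Both treated values were higher, by 0.14 ± 0.10 (adjusted p = 0.445). Crat, the carnitine acetyltransferase, and Acad11, an acyl-CoA dehydrogenase of 4-hydroxy acids, are placed in either organelle. Crat differed by 0.075 ± 0.13, or -0.0054 without control replicate 1. Acad11 differed by -0.16 ± 0.15, or 0.018 without treated replicate 2.

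Set side by side, the 14 measured genes of mitochondrial steps had 9 higher and 5 lower values, with a median difference of 0.037 and a range from -0.18 to 0.24. The 9 genes of peroxisomal steps had 5 higher and 4 lower, with a median of 0.052 and a range from -0.32 to 0.19. In each group 2 genes had both treated arrays above all controls (14.3% of the mitochondrial and 22.2% of the peroxisomal ones, against 25.1% of all genes and 10.8% of those at least as bright as the dimmest member), and 0 had both below. The medians lay close together, and the peroxisomal one turned to -0.097 without treated replicate 1, to -0.028 with cyclic loess and to -0.0064 with quantile normalization.

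Of the ketone body enzymes, Bdh1, which interconverts acetoacetate and 3-hydroxybutyrate, was at 9.71, 9.86 and 10.11 in controls and at 10.18 and 10.02 in treated liver. Treated replicate 2 lay below control replicate 3, so the groups overlapped, and the difference was 0.21 ± 0.15. Acat1, the mitochondrial acetoacetyl-CoA thiolase, differed by 0.057 ± 0.11 and turned negative with cyclic loess or quantile normalization. The 4 other measured ketone genes all had lower values. Slc16a6, which exports 3-hydroxybutyrate, was at 6.18, 6.09 and 5.96 in controls and at 5.36 and 5.72 in treated liver, a difference of -0.54 ± 0.15 (adjusted p = 0.204). Oxct1, which activates ketones for use and is sparse in liver, was at -0.33 ± 0.11, and the monocarboxylate transporter Slc16a1 at -0.29 ± 0.17, or -0.032 without treated replicate 2. These 3 of 4 had both treated arrays below all controls, against 19.5% of all genes, and the median of the 4 was -0.31. The last of them, Bdh2, a dehydrogenase named for 3-hydroxybutyrate, was at -0.10 ± 0.18, or 0.12 without treated replicate 1.

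**Figure D2:**
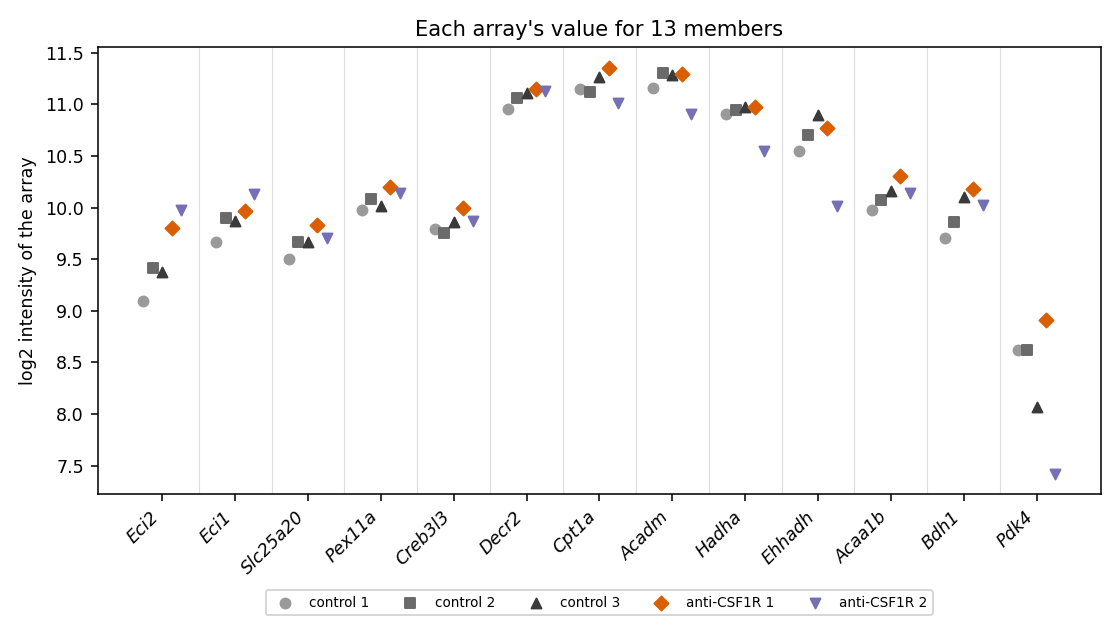
Log2 intensity on each of the 5 arrays for 13 members, with grey symbols for controls and coloured ones for treated liver (levels of different genes are not comparable). The orange and purple symbols lie above all grey ones for the 6 genes on the left, and for Cpt1a, Acadm, Hadha, Ehhadh and Pdk4 treated replicate 2 lies below every control.

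The remaining members are regulators, lipid droplet proteins and targets of PPARA. Creb3l3, a liver transcription factor that works with PPARA in fasting, was at 9.80, 9.76 and 9.86 in controls and at 9.996 and 9.87 in treated liver. The groups were apart by a narrow margin, and the difference was 0.13 ± 0.11. Pdk4, the kinase that blocks pyruvate oxidation when fat is burned, was at 8.62, 8.61 and 8.06 in controls and at 8.91 and 7.42 in treated liver. Its treated values were the highest and the lowest of the 5. The difference of -0.27 ± 0.44 became 0.48 without treated replicate 2, and its 95% interval ran from -1.34 to 0.80. A gap of 1.49 or more between the treated arrays was seen in 0.0759% of the 5268 genes at least as bright as the dimmest member. The lipid droplet coat proteins Plin2 and Plin5 were at 0.07 ± 0.15 and -0.21 ± 0.16, and each changed sign without 1 treated array (-0.12 for Plin2, 0.0022 for Plin5).

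Vnn1, a pantetheinase and a sensitive target of PPARA, was the member with the widest control spread. It was at 8.37, 9.95 and 9.40 in controls and at 9.64 and 9.31 in treated liver, a difference of 0.24 ± 0.44, or -0.20 without control replicate 1. A control range of 1.58 or more was found in 0.209% of the 5268 genes. Control replicate 1 was also low for other targets of PPARA. The fatty acid hydroxylase Cyp4a14 stood at 7.52 there, against 11.02 and 9.84 on the other controls and 9.95 and 9.53 in treated liver. Cyp4a31 stood at 7.96, against 9.24 and 9.08, and the thioesterase Acot2 at 7.45, against 8.37 and 8.47. In the wider list of 22 PPARA regulators and targets, control replicate 1 was the lowest control for 17 (77.3%), and among the members for 20 of 33 (60.6%), against 36.8% of all genes. Among genes at least as bright as the dimmest member the share was 45.7%, but the wider list also holds dimmer genes. For Vnn1, Cyp4a14, Cyp4a31 and Acot2 the range of the controls exceeded the difference between groups. That also held for other members, among them Cpt1a (0.14 against 0.0045) and Bdh1 (0.40 against 0.21), but not for Eci2 (0.32 against 0.60).

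**Figure D3:**
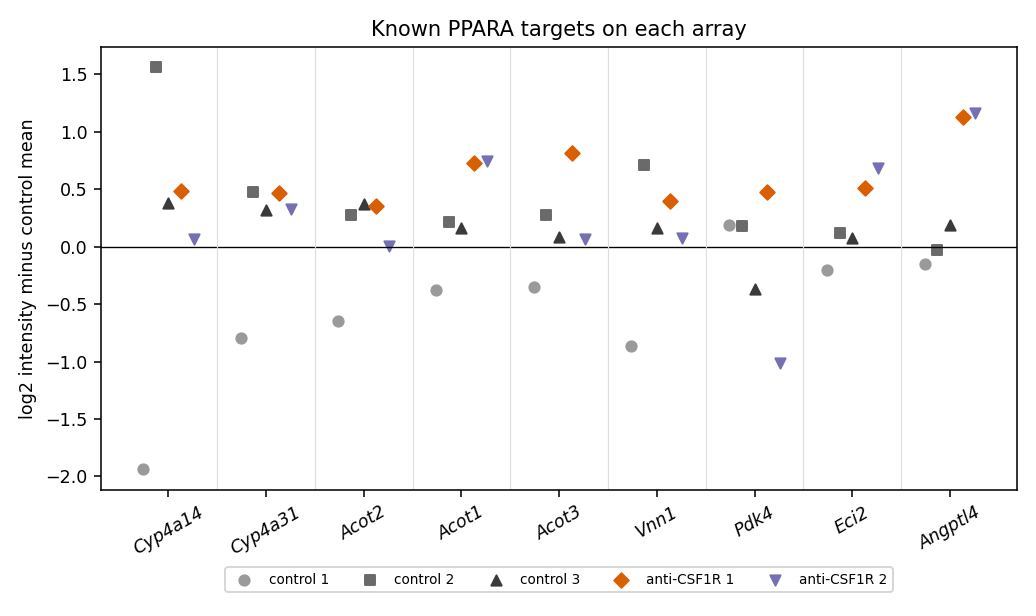
Log2 intensity minus the control mean on each array for 9 known targets of PPARA, chosen with their values known. Control replicate 1 (light grey circle) is the lowest point for every gene but Pdk4, and both treated arrays lie above all controls for Acot1, Eci2 and Angptl4.

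Across the 33 members, 21 had a higher and 12 a lower mean in treated liver, with a median difference of 0.057 against 0.043 for all genes. The split was 17 higher with quantile normalization, 18 with cyclic loess and 22 with median centring. The median was -0.066 for the 5268 genes at least as bright as the dimmest member, so brighter genes had lower differences on these arrays. The 95% interval of a member's difference reached a median of 0.31 to either side, and 31 of 33 intervals lay within a 2-fold change in either direction, all but those of Pdk4 and Vnn1.

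The 2 treated arrays differed from each other in these genes. Treated replicate 2 was below treated replicate 1 for 30 of 33 members (90.9%), including all 9 peroxisomal genes. The same held for 53.6% of all genes and 54.6% of those at least as bright as the dimmest member. In the wider pathway described below it held for 48 of 75 genes (64%). There the share was 8 of 16 (50%) for peroxisomal oxidation and biogenesis. It was 14 of 17 (82.4%) for fatty acid uptake, activation and lipolysis. The exceptions among the members were Eci1, Eci2 and Echs1. Treated replicate 1 was above all controls for 18 members (54.5%), against 36.2% of all genes and 17.4% of those bright genes, and below them for 0 (29.5% and 38.7%). Treated replicate 2 was above them for 6 (18.2%, against 40.5% and 31.7%) and below them for 14 (42.4%, against 31.2% and 49.0%). The share of members low on treated replicate 2 thus lay between those of all genes and of bright genes. The same shares are those of groups apart on the low side without treated replicate 1 (14 members) and on the high side without treated replicate 2 (18 members). The 6 members with groups apart were among those found on the high side in either case.

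**Figure D4:**
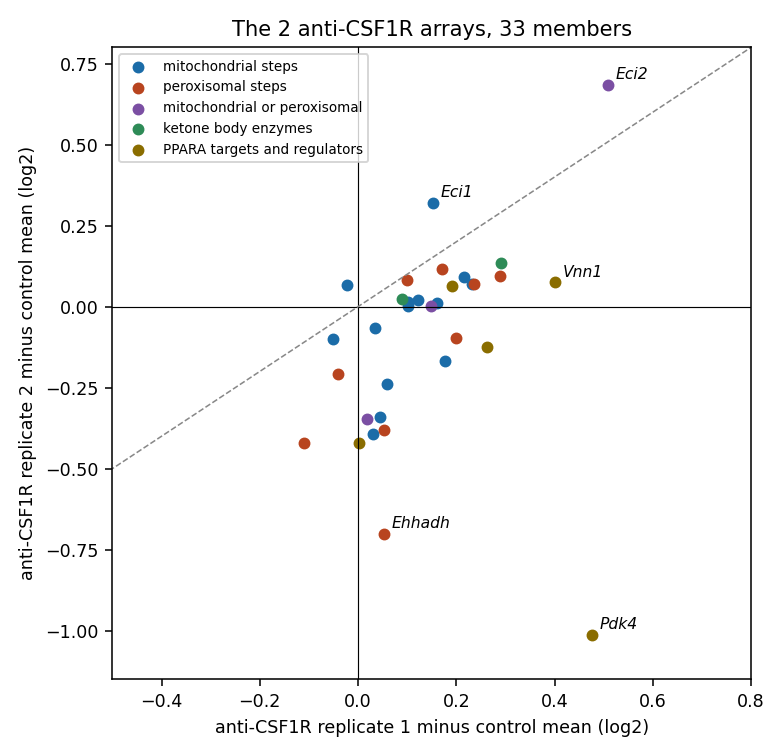
Each point is a member, placed by its log2 intensity minus the control mean on treated replicate 1 (x axis) and on treated replicate 2 (y axis), and the dashed line marks equal values. Of the 33 points 30 lie under the line, with Pdk4 and Ehhadh farthest below it, and Eci2 lies high on both axes.

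The wider pathway was described with 88 further genes, of which 75 were measured. In limma 0 of 75 passed an adjusted p of 0.05, and 5 were higher (6.67%, against 9.91% of all genes) and 6 lower (8%, against 8.4%) at an unadjusted p under 0.05. The median difference was -0.0061, with 37 higher and 38 lower. In mitochondrial oxidation and carnitine supply, 8 of 16 were higher. Acacb makes the malonyl-CoA that inhibits Cpt1a, and was at 9.68, 9.72 and 9.72 in controls and at 9.44 and 8.54 in treated liver, a difference of -0.72 ± 0.26 that was -0.27 without treated replicate 2. Mlycd, which breaks malonyl-CoA down, was at 0.28 ± 0.15 and the carnitine importer Slc22a5 at 0.47 ± 0.17, or 0.22 without treated replicate 1. All 3, picked by their p, had groups apart. In the whole list of 16, 3 were apart on the high side (18.8%, against 25.1% of all genes) and 1 on the low side (6.25%, against 19.5%). In peroxisomal oxidation and biogenesis, 8 of 16 were higher and 0 passed an unadjusted p of 0.05. The 3 with the smallest p were the transporter Abcd2 (-0.90 ± 0.52), the thioesterase Acot4 (0.31 ± 0.18) and the import receptor Pex5 (-0.27 ± 0.17). Abcd2 was at 6.43 on each treated array and at 6.23 on control replicate 1, while the other controls stood at 7.78 or higher.

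In fatty acid uptake, activation and lipolysis, 7 of 17 were higher and 10 lower. Both acyl-CoA synthetases with the smallest p were lower. Acsl5 was at 10.82, 10.92 and 10.91 in controls and at 10.62 and 10.03 in treated liver (-0.55 ± 0.19), and Acsl4 was at -0.62 ± 0.23. The droplet protein Plin3 was at -0.33 ± 0.13. All 3, picked by their p, had both treated arrays below all controls. In the whole list 4 of 17 did (23.5%, against 19.5% of all genes), and 2 had both above (11.8%, against 25.1%). Without treated replicate 2 Acsl5 was at -0.26 and Acsl4 at -0.24. In the list of PPARA regulators and targets, 14 of 22 were higher and 8 lower. Both treated arrays lay above all controls for 6 (27.3%, against 25.1% of all genes) and below them for 4 (18.2%, against 19.5%). These 4 were Lpin1 (-0.49 ± 0.25), Ppargc1a (-0.38 ± 0.16), Cyp4a12a (-0.24 ± 0.12) and Sirt1 (-0.21 ± 0.12). PPARA's own transcript, Ppara, was at 9.85, 9.89 and 9.90 in controls and at 10.20 and 9.94 in treated liver, a difference of 0.19 ± 0.12, or 0.061 without treated replicate 1. The lipase inhibitor Angptl4 was at 8.19, 8.31 and 8.53 in controls and at 9.47 and 9.50 in treated liver. The groups were far apart and the treated arrays alike, and the difference was 1.15 ± 0.13, a 2.21-fold higher mean (adjusted p = 0.175 in limma). The thioesterase Acot1 was at 5.59, 6.19 and 6.14 in controls and at 6.71 and 6.72 in treated liver, a difference of 0.74 ± 0.20 (adjusted p = 0.201). Cidea, a lipid droplet protein that is also one of the adipocyte markers, was higher by 0.55 ± 0.11 at log2 intensities of 3.49 or less.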

How the data were processed

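The deposited table holds intensity per probe set on a linear scale, 1 column per array, made by the authors with Affymetrix Expression Console 1.1 per the submitters' processing notes. Background correction, summarisation and normalization: not given in the sources used here. Log2 was taken with no offset or filter. Of 35556 probe sets, 21218 had 1 symbol in the platform annotation, 1881 several and 12457 were unlisted. A two-sided limma 3.58.1 model (R 4.3.3; lmFit, eBayes) of group was fitted and adjusted by Benjamini-Hochberg over all probe sets, and tested on simulated data. With 2 against 3 arrays the smallest exact permutation p is 0.1, so that test was not used. The number of arrays limits the precision.

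The members and gene lists were chosen with earlier results of these data known, so no list was tested. Array values are given for members with groups apart or an unadjusted p under 0.05 and for key enzymes (Cpt1a, Acadm, Hadha, Ehhadh, Acaa1b, Bdh1, Pdk4), and some others chosen after their values were seen. In each wider list the 3 genes with the smallest p are named, and Ppara and some others. Alternatives covered normalization, dim probe sets, probe set choice, an offset of 16, a trended robust variance, weighted arrays, a block for replicate number and each array left out. No protein table was used here. Figures were drawn with matplotlib 3.10.9.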

Additional observations from a re-analysis of the deposited data

How the results depend on the processing

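In limma, 0 members passed an adjusted p of 0.05 under any of the 15 alternatives, and the smallest adjusted p of a member lay between 0.0831 (1 probe set per gene) and 0.411 (without control replicate 3). Over all features, 14 genes passed with 1 probe set per gene and 0 under each of the others. The count of members with both treated arrays above all controls, 6 as reported, was 10 with arrays centred on their medians, which held all 6, and 3 with quantile normalization, which held 2 of them (Eci1 and Eci2). It ran from 6 to 18 when 1 array was left out, with 18 without treated replicate 2 and 15 without control replicate 3. The count below all controls was 2 with cyclic loess (Acaa2 and Hadh), and ran from 0 to 14 when 1 array was left out, with 14 without treated replicate 1, 3 without control replicate 2 and 1 without control replicate 1. The median difference with 1 array left out ran from 0.0010 to 0.10 for mitochondrial steps and from -0.097 to 0.10 for peroxisomal steps. With 1 array fewer, the groups come apart more readily for any gene. Without treated replicate 2, 54.5% of members were apart on the high side, against 36.2% of all genes. Without treated replicate 1, 42.4% of members were apart on the low side, against 31.2%. Among genes at least as bright as the dimmest member these shares were 17.4% and 49.0%. Any other cause of these shifts was not tested. The sign of 18 of 33 differences held whichever array was left out, and that of 28 of 33 under the 3 scalings. With the replicate number as a block, the medians were 0.062 and 0.097 and 0 members were called. The labels do not say that a number marks a shared animal, litter or day.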
